A study of Homo sapiens with 6 samples.

Results

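The genes described here are the chains of the integrins and laminins, 35 genes of the 60483 listed in the count files. They were chosen by name, by matching each Ensembl ID to 25 integrin chains and 10 laminin chains, with no filter on low counts. RNA-seq was carried out on 253J cells, a human bladder cancer line at passages 16 to 19, grown in medium with fetal bovine serum. Control siRNA was given to the 3 control samples (replicates 1, 2 and 3) and siRNA against FTO to the other 3 samples (replicates 4, 5 and 6), whereas the methods of the study describe shRNA, so the agent is named here as in the labels. Whether the replicates were separate cultures is not stated, so each p-value reflects the spread between libraries alone, and that spread may be technical.

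Integrins are cell surface receptors made of an alpha and a beta chain, and the pair of chains sets what a cell can hold on to: collagen, laminin, or proteins such as fibronectin and vitronectin. Laminins are cross-shaped proteins of the basement membrane, each put together from an alpha, a beta and a gamma chain. In epithelia such as the lining of the bladder, the ITGA6 and ITGB4 chains pair in hemidesmosomes, the junctions that fasten basal cells to laminin, while ITGB1 pairs with many alpha chains in focal adhesions, where talin and kindlin link it to actin.

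FTO, the m6A demethylase targeted, was counted at 31.7, 21.35 and 31.0 CPM (counts scaled to the library size after TMM factors) in control replicates 1, 2 and 3 and at 20.1, 20.6 and 15.7 CPM in FTO siRNA replicates 4, 5 and 6. The groups did not overlap, and the log2 fold change was -0.57 (SE 0.16) with an adjusted p of 0.0209 in the quasi-likelihood test of edgeR. In the same test FTO lost the call without control replicate 1 (log2 fold change -0.49, adjusted p = 0.107) or 3 (-0.50, 0.1025). It also lost the call on library totals alone (-0.47, adjusted p = 0.0536). Each adjusted p given here is from this test, except that a range over alternatives also covers DESeq2 and limma voom, beside other scalings and filters and fits with libraries left out. Library totals ranged from 10991789 to 19891269 counts in the controls and from 13162731 to 15709975 in the FTO siRNA libraries, at which 3 counts, taken as the floor of detection, are worth 0.154 to 0.278 CPM. This floor covers counting error only. All 5 epithelial markers (EPCAM, CDH1, KRT8, KRT18 and KRT19) exceeded 10 CPM in every library. Of 10 urothelial markers, PPARG and FOXA1 alone exceeded 10 CPM, the uroplakin UPK1B had no count in any library and KRT5 and TP63 stayed below 1 CPM, whereas all 5 intestinal markers exceeded 10 CPM in every library. The defining markers of urothelium were thus absent or near 0, and the cells are called 253J here after their label.

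Of the 35 genes, 25 (16 integrins and 9 laminins) passed the filter on low counts and were tested. In the FTO siRNA cells 10 of them were significantly higher at an adjusted p under 0.05, 4 were lower and 11 did not pass the test. The higher genes were ITGA2, ITGA3, ITGA5, ITGA6, ITGAV, ITGB1, ITGB7, LAMA1, LAMA3 and LAMC1, and the lower genes were ITGAX, ITGB4, LAMA5 and LAMC3. Over all 14965 genes tested, 19.5% were higher and 17.9% were lower, beside 40.0% and 16.0% of the 25 genes. The share of lower chains was thus near that of all genes, and the share of higher chains lay above it. The chains too were chosen with earlier results of these data known. The median log2 fold change was 0.16 over the 25 genes and 0.0057 over all genes tested. That of the chains was not stable, at -0.013 (25 chains tested) with FTO siRNA replicates 4 and 5 left out, 0.57, 0.43 and 0.33 (29 tested in each) without control replicate 1, 2 and 3, and 0.38 (30 tested) without FTO siRNA replicate 6. Without a TMM factor, on library totals alone, 10 of the chains were higher and 2 were lower, against 4000 higher and 1824 lower among all genes (2913 and 2684 with TMM).

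The libraries of the groups did not overlap for 10 tested chains that were higher and 5 that were lower, beside 25.8% and 25.6% of all genes tested. The fifth lower chain was ITGA7, which did not pass the test. The 10 chains below the filter were ITGA1, ITGA4, ITGA8, ITGA10, ITGAL, ITGAM, ITGB3, ITGB6, ITGB8 and LAMA4, and they are described by their counts alone. ITGA8 had no count in any library. At the other end, 17 of the 35 chains reached at least 10 CPM in every library.

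**Figure D1:**
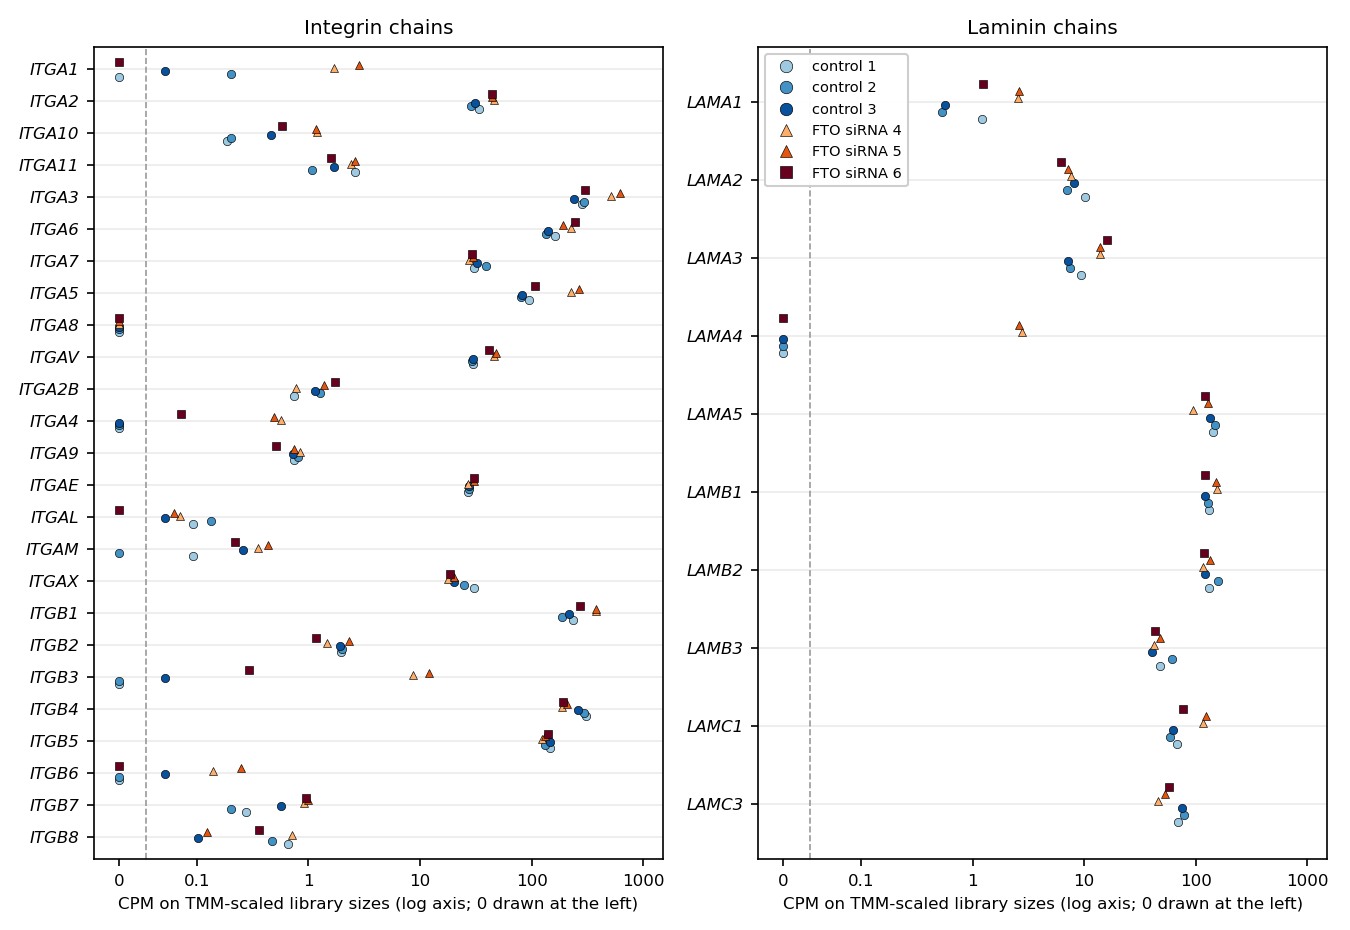
CPM of the 25 integrin chains (left) and 10 laminin chains (right) in each of the 6 libraries, on a log axis with values of 0 drawn left of the dashed line. Circles are the controls, triangles FTO siRNA replicates 4 and 5, and squares FTO siRNA replicate 6. For ITGB3, LAMA4 and ITGA1 the triangles lie far to the right of the other 4 libraries, while for ITGA2, ITGA6, ITGAV and LAMA3 all 3 FTO siRNA libraries lie to the right of the controls.

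**Figure D2:**
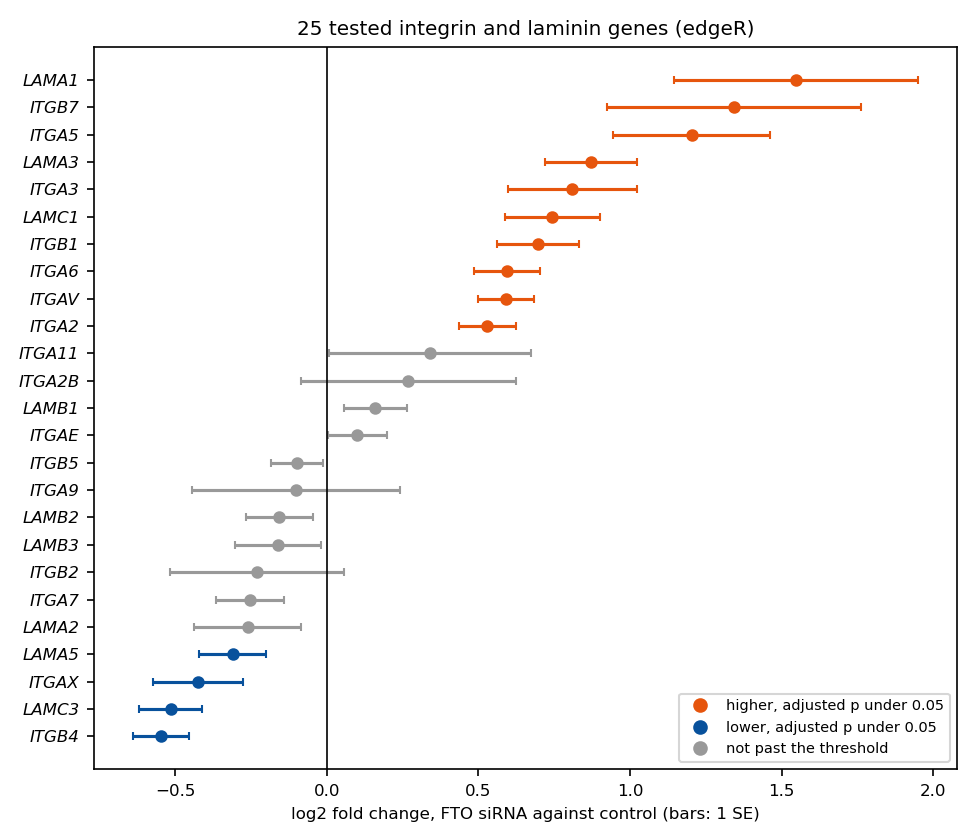
The log2 fold change of the 25 tested chains, FTO siRNA against control, from edgeR, with bars of 1 SE and colours for genes past an adjusted p of 0.05. The 10 higher chains run from 0.53 (ITGA2) to 1.55 (LAMA1) and the 4 lower chains from -0.31 (LAMA5) to -0.55 (ITGB4).

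The start regions of several chains that moved are shown here so that their sequences can be set side by side. For 25 of the 35 genes RefSeq's table of promoters holds an entry, 32 entries in all. Only the first entry listed for each gene was used, and other starts were not searched. The 250 bases before the start of that entry are printed 5′ to 3′ on the gene's strand for 5 higher chains and 1 lower chain, on the build GRCh38.p14. Capitals mark every match, on either strand, to TGAGTCA (the AP-1 motif), GGGCGG (the GC box, which binds SP factors), TATAAA (the TATA box) and GGAATG (a TEAD motif).
ITGA5 (GRCh38.p14, chr12:54419267-54419516, minus strand): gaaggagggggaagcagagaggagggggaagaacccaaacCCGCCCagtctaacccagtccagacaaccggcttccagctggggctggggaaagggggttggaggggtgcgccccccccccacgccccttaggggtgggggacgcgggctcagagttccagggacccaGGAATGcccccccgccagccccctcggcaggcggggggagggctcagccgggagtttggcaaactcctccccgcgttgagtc
ITGB1 (GRCh38.p14, chr10:32958231-32958480, minus strand): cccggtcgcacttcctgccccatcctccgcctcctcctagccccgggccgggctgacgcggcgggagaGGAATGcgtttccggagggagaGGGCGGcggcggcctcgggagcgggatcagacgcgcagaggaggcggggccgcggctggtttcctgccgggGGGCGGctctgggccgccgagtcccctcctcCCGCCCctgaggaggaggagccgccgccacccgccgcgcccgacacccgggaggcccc
ITGA2 (GRCh38.p14, chr5:52989102-52989351, plus strand): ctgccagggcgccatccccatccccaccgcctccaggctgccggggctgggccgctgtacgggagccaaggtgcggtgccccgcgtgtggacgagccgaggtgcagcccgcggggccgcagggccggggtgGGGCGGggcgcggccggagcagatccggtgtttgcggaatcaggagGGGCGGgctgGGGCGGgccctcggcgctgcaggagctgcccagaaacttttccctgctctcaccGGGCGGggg
LAMA3 (GRCh38.p14, chr18:23872770-23873019, plus strand): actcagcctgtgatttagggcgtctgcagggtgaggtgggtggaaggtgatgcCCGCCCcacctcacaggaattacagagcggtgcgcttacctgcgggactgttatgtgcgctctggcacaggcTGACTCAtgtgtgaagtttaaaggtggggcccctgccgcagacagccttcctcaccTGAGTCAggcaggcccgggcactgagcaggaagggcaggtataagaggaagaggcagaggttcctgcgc
LAMC1 (GRCh38.p14, chr1:183023170-183023419, plus strand): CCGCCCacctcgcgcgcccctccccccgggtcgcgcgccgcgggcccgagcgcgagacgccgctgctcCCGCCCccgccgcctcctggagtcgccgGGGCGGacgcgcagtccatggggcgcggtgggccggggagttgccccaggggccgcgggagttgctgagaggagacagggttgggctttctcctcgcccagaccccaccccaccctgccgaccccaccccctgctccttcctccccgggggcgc
LAMA5 (GRCh38.p14, chr20:62367313-62367562, minus strand): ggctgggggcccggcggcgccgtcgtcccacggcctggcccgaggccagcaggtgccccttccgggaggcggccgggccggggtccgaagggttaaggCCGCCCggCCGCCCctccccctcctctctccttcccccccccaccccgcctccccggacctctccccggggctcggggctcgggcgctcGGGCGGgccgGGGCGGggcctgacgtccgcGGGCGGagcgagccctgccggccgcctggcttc
The GC box was found in each of the 6, from 1 match in ITGA5 and LAMA3 to 5 in LAMA5, the chain that was lower. It was present in 13 of the 25 entries (52.0%), 1 per gene, and in 42.6% of all 35116 entries cut to the same window. Those 35116 were not limited to 1 per gene, so the shares here and below are not strictly alike. The AP-1 motif had 2 matches in LAMA3, the only one of the 25 entries used that held it (4.0%, against 4.2% of all). GGAATG was present upstream of ITGA5 and ITGB1, and in 4 of the 25 entries (16.0%, against 11.9%). TATAAA was present in ITGA6 alone (4.0%, against 10.7%). These are matches of letters, and no binding was measured.

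The receptors for laminin are taken first. ITGA3, the alpha chain of a main laminin receptor of epithelia, was counted at 280.4, 294.3 and 240.4 CPM in the controls and at 510.0, 619.8 and 299.2 CPM in FTO siRNA replicates 4, 5 and 6. Replicates 4 and 5 lay far above the controls, and replicate 6 lay just above the highest control, at 1.10 times the control mean. Its log2 fold change was 0.81 (SE 0.21, adjusted p = 0.0138). With replicates 4 and 5 left out it was 0.14 (adjusted p = 0.567), and the call also ended without any 1 of the controls or without replicate 4 (adjusted p from 1.8e-06 to 0.567 over 15 alternatives).

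ITGA6, which pairs with ITGB4 in hemidesmosomes and with ITGB1 elsewhere, had 161.1, 134.4 and 140.9 CPM in the controls and 223.8, 191.6 and 243.0 CPM in replicates 4, 5 and 6. All 3 FTO siRNA libraries were above all controls and replicate 6 was the highest of them. ITGA6 had a log2 fold change of 0.59 (SE 0.11, adjusted p = 0.0030), or of 0.74 with replicate 6 as the only FTO siRNA library (adjusted p = 0.0070, within a range of 6.4e-06 to 0.0381 over the alternatives). ITGB4, its hemidesmosome partner, moved the other way. It had 306.5, 291.0 and 260.1 CPM in the controls and 186.7, 208.2 and 192.4 CPM in the FTO siRNA libraries, with no overlap and little spread among replicates 4, 5 and 6. For ITGB4 the log2 fold change was -0.55 (SE 0.092, adjusted p = 0.0021), and -0.57 with replicate 6 alone. ITGA7, a laminin receptor chain best known from muscle, had 30.3, 39.3 and 32.4 CPM in the controls and 27.1, 29.6 and 28.97 CPM in the FTO siRNA libraries, with an adjusted p of 0.103 from edgeR. The 3 smooth muscle markers summed to 45.4 to 71.5 CPM in the controls and 45.8 to 50.5 CPM in the FTO siRNA libraries, mostly from DES.

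ITGB1, the beta chain shared by most collagen, laminin and fibronectin receptors, was counted at 232.1, 186.7 and 217.2 CPM in the controls and at 380.0, 378.4 and 272.6 CPM in replicates 4, 5 and 6. The 3 FTO siRNA libraries were above the controls, and replicate 6 stood between the controls and the other two. ITGB1 had a log2 fold change of 0.70 (SE 0.14, adjusted p = 0.0039). The call was lost only where replicates 4 and 5 were left out together (log2 fold change 0.37, adjusted p = 0.117), among 15 alternatives with an adjusted p from 2.8e-06 to 0.117.

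Among the 4 collagen-binding alpha chains, ITGA2 was the only one with more than 3 CPM in any library. ITGA2, the collagen receptor chain of epithelia and platelets, had 33.4, 28.7 and 30.7 CPM in the controls and 46.2, 44.0 and 43.6 CPM in the FTO siRNA libraries. The FTO siRNA libraries lay close together and above all controls, with replicate 6 at the level of the others. Its log2 fold change was 0.53 (SE 0.093, adjusted p = 0.0025, and 0.000135 to 0.0475 over the alternatives). ITGA11, a collagen receptor chain of fibroblasts, had 28, 16 and 33 counts in the controls and 34, 42 and 22 in the FTO siRNA libraries (adjusted p = 0.442 from edgeR). ITGA10, known from cartilage, had 2, 3 and 9 counts against 17, 19 and 8 and was not tested.

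Of the chains that recognise the RGD motif of fibronectin and vitronectin, ITGA5 and ITGAV rose. ITGA5, the alpha chain of the classical fibronectin receptor, was counted at 95.2, 80.8 and 82.6 CPM in the controls and at 224.7, 264.3 and 106.0 CPM in replicates 4, 5 and 6. Replicates 4 and 5 were 2.12 and 2.49 times replicate 6, which lay above the controls at 1.23 times their mean. For ITGA5 the log2 fold change was 1.20 (SE 0.26, adjusted p = 0.0059). It was 0.30 (adjusted p = 0.177) with replicates 4 and 5 left out, and leaving out any 1 of the 3 controls also ended the call (8.7e-09 to 0.177 over the alternatives).

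ITGAV, which joins several beta chains in receptors for vitronectin and latent TGF-beta, had 30.0, 29.3 and 30.1 CPM in the controls and 45.5, 47.6 and 41.5 CPM in the FTO siRNA libraries. The controls differed by less than 1 CPM and every FTO siRNA library was more than 10 CPM above them. ITGAV had a log2 fold change of 0.59 (SE 0.092, adjusted p = 0.0016), with an adjusted p of 0.0499 at most over the alternatives. Its beta partner ITGB5 had 146.3, 130.8 and 144.8 CPM in the controls and 123.1, 132.2 and 139.2 CPM in the FTO siRNA libraries, which overlapped (log2 fold change -0.10, SE 0.086, adjusted p = 0.396). ITGB3, the other well-known partner of ITGAV and a chain of platelets and invasive cells, had 0, 0 and 1 counts in the controls, 122 and 192 in replicates 4 and 5, and 4 in replicate 6. Replicates 4 and 5 thus had 8.60 and 11.9 CPM, 29.6 and 40.9 times replicate 6 and at least 30.9-fold higher than control replicates 1 and 2, which had no count. Its platelet alpha partner ITGA2B had 8, 19 and 22 counts in the controls and 11, 22 and 24 in the FTO siRNA libraries (adjusted p = 0.573 from edgeR). The 4 platelet markers summed to 1.18 to 1.30 CPM in the controls and 0.871 to 1.30 CPM in the FTO siRNA libraries, with PF4 and GP9 at 0 in all. ITGB6 did not exceed 4 counts and ITGB8 did not exceed 10 counts in any library. ITGB3 was listed with 51.6% of its exon bases shared with another gene model on the same strand in GENCODE 29, and ITGB6 with 20.6%. How reads over shared bases were counted is not known here.

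The chains best known from leukocytes were low apart from ITGAE and ITGAX. ITGAX, the alpha chain of a complement receptor, had 30.7, 24.9 and 20.2 CPM in the controls and 17.6, 20.0 and 18.4 CPM in the FTO siRNA libraries. Control replicate 3 lay next to FTO siRNA replicate 5, and the groups did not overlap. Its log2 fold change was -0.42 (SE 0.15, adjusted p = 0.044), and the call held in 7 of 15 alternatives. It was lost on library totals alone, with DESeq2, with limma voom, without control replicate 1 or 2, without FTO siRNA replicate 4 or 5 and without both of these (0.0187 to 0.185 over the alternatives). ITGAE, the alpha chain that binds E-cadherin, stayed between 26.7 and 30.6 CPM in all libraries (log2 fold change 0.10, SE 0.096, adjusted p = 0.429). ITGB2, the beta partner of ITGAX, had 21, 30 and 37 counts in the controls and 21, 37 and 16 in the FTO siRNA libraries (adjusted p = 0.55 from edgeR), and ITGAL and ITGAM had at most 7 counts in a library. ITGA9 had 8, 12 and 14 counts against 12, 12 and 7 (adjusted p = 0.843 from edgeR).

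ITGB7, which partners ITGAE and ITGA4, was called higher on few counts, 3, 3 and 11 in the controls and 13, 16 and 13 in the FTO siRNA libraries. The log2 fold change of ITGB7 was 1.34 (SE 0.42, adjusted p = 0.0288) and was past the threshold in 7 of 14 alternatives (0.0198 to 0.218). It failed with no filter, with DESeq2, without control replicate 1 or 2, and without FTO siRNA replicate 4, replicate 5 or both. Of its exon bases 42.1% are shared with ZNF740 on the opposite strand, and ZNF740 had 45.6 to 52.0 CPM in the 6 libraries, so that the value of ITGB7 is uncertain. ITGA4 had no count in the controls, 8 in each of replicates 4 and 5 and 1 in replicate 6. The 8 leukocyte markers summed to 28.1 to 32.2 CPM in the controls and 30.0 to 37.8 CPM in the FTO siRNA libraries, mostly from CORO1A, and CD3E had no count in any library while PTPRC had at most 0.0705 CPM.

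Turning to the laminins, the alpha chains differed in direction. LAMA3, the alpha chain of the laminin that anchors hemidesmosomes, had 9.45, 7.47 and 7.10 CPM in the controls and 13.9, 13.8 and 16.05 CPM in the FTO siRNA libraries. All 3 were above all controls, and replicate 6 was the highest. The log2 fold change of LAMA3 was 0.87 (SE 0.15, adjusted p = 0.0025), and 1.02 with replicate 6 alone (adjusted p = 0.0098, between 0.000296 and 0.0286 in all alternatives). LAMA5, the widespread alpha chain of adult epithelial basement membranes, had 143.0, 148.7 and 134.5 CPM in the controls and 95.3, 128.0 and 120.3 CPM in the FTO siRNA libraries. The groups were apart by a few CPM, between control replicate 3 and FTO siRNA replicate 5. Its log2 fold change was -0.31 (SE 0.11, adjusted p = 0.049), just inside the threshold, and held in 8 of 15 alternatives (0.0089 to 0.279). The call ended on library totals alone, with limma voom, without any 1 of the controls, without FTO siRNA replicate 4 and without replicates 4 and 5.

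LAMA1, an alpha chain of embryonic basement membranes, had 13, 8 and 11 counts in the controls and 36, 42 and 17 in replicates 4, 5 and 6. In CPM these were 1.205, 0.534 and 0.566 against 2.54, 2.60 and 1.23, so that replicate 6 barely exceeded control replicate 1. The log2 fold change was 1.55 (SE 0.40, adjusted p = 0.0137), and 0.77 (adjusted p = 0.407) with replicates 4 and 5 left out. It also failed without control replicate 2 or 3 and without FTO siRNA replicate 4 or 5 (0.000748 to 0.407 over 14 alternatives), and 11.1% of its exon bases lie under other gene models, mostly on the opposite strand. LAMA2, known from muscle and nerve, had 10.1, 7.07 and 8.18 CPM against 7.68, 7.18 and 6.17 CPM, which overlapped (log2 fold change -0.26, SE 0.18, adjusted p = 0.267).

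LAMA4, the alpha chain of vessel walls and mesenchyme, had no count in any control or in replicate 6, and 39 and 42 counts in replicates 4 and 5. These were 2.75 and 2.60 CPM, at least 9.36-fold higher than a library at 0, taken at the floor of 3 counts per library. In like manner ITGA1, the collagen and laminin receptor chain of mesenchymal cells, had 0, 3 and 1 counts in the controls, 24 and 46 in replicates 4 and 5 and 0 in replicate 6. Replicates 4 and 5 were at least 7.76-fold and 13.1-fold higher than replicate 6. Neither gene passed the filter, since each exceeded 10 counts in these 2 libraries alone. The 4 endothelial markers (PECAM1, CDH5, KDR and VWF) summed to 0.371 to 0.934 CPM in the controls, 2.61 and 2.48 CPM in replicates 4 and 5 and 0.726 CPM in replicate 6, with CDH5 at or near 0 throughout, and their part in the values of LAMA4 and ITGA1 was not tested.

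None of the 3 laminin beta chains passed the test. LAMB1 had 132.3, 127.4 and 120.7 CPM in the controls and 154.4, 150.7 and 119.9 CPM in replicates 4, 5 and 6, so that replicate 6 lay below all controls (log2 fold change 0.16, SE 0.10, adjusted p = 0.248). LAMB2, common in adult membranes, had 130.8, 158.0 and 119.8 CPM against 115.4, 132.8 and 118.4 CPM (log2 fold change -0.16, SE 0.11, adjusted p = 0.289). LAMB3, the usual beta partner of LAMA3, had 47.5, 61.65 and 40.7 CPM against 42.6, 48.1 and 43.3 CPM (log2 fold change -0.16, SE 0.14, adjusted p = 0.393). The rise of LAMA3 was thus measured beside a beta partner whose groups overlapped.

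The 2 gamma chains moved in opposite directions. LAMC1, the gamma chain of most laminins, had 67.8, 58.4 and 62.2 CPM in the controls and 115.4, 123.3 and 76.5 CPM in replicates 4, 5 and 6. Replicate 6 was above the controls, at 1.22 times their mean, and replicates 4 and 5 were 1.51 and 1.61 times replicate 6. LAMC1 had a log2 fold change of 0.74 (SE 0.16, adjusted p = 0.0053), which fell short without control replicate 2 or 3 and, at 0.29 (adjusted p = 0.202), without replicates 4 and 5 (2.2e-06 to 0.202 over the alternatives). LAMC3, a gamma chain first described in the nervous system and skin, had 69.7, 78.1 and 75.6 CPM in the controls and 45.7, 53.0 and 57.9 CPM in the FTO siRNA libraries, all below the controls. LAMC3 had a log2 fold change of -0.51 (SE 0.10, adjusted p = 0.0046), past the threshold in every alternative but the one without replicates 4 and 5 (-0.36, adjusted p = 0.12, the highest of a range from 0.00023).

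Levels of different chains were compared as counts per kilobase of exon, scaled to the library total in the manner of CPM without TMM, with exon lengths from GENCODE 29 and without a test. Among the beta chains ITGB4 took 42.35, 45.4 and 39.5% of the class total in the controls and ITGB1 36.1, 32.8 and 37.1%. In FTO siRNA replicates 4, 5 and 6 ITGB4 took 24.6, 26.2 and 29.7% and ITGB1 took 56.25, 53.5 and 47.3%. ITGB4 was therefore the first beta chain in each control and ITGB1 in each FTO siRNA library. ITGB5 was the third beta chain in all 6 libraries, with 17.0 to 23.0% of the class.

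The alpha integrin chains were led by ITGA3 and ITGA6, with ITGA5 next, in every library but FTO siRNA replicate 5, where ITGA5 came before ITGA6. ITGA3 took 31.8 to 36.3% in the controls, 37.4 and 41.6% in replicates 4 and 5 and 29.15% in replicate 6. ITGA6 took 24.9 to 28.2% in the controls, 24.65 and 19.3% in replicates 4 and 5 and 35.5% in replicate 6, where it was first. ITGA5 took 12.9 to 14.4% in the controls, 21.3 and 23.0% in replicates 4 and 5, and 13.4% in replicate 6. In these shares replicate 6 was nearer to the controls for ITGA5 and apart from all other libraries for ITGA6. The summed level of the alpha chains was 75.4 to 85.8 CPM per kilobase in the controls and 145.6, 156.1 and 109.5 in replicates 4, 5 and 6. For the beta chains it was 87.8 to 105.1 in the controls and 117.7, 120.8 and 100.3 in replicates 4, 5 and 6, so that replicate 6 lay within the controls.

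Among the laminin alpha chains LAMA5 took most of the class in every library, 85.5 to 89.5% in the controls and 76.2 to 82.65% in the FTO siRNA libraries. LAMA3 took 4.38 to 5.50% in the controls and 8.54 to 10.8% in the FTO siRNA libraries. Of the gamma chains measured, LAMC1 took 46.8, 40.3 and 42.6% in the controls and 69.55, 67.7 and 54.4% in replicates 4, 5 and 6, and LAMC3 took the rest, so that their order differed between the groups in all 6 libraries. The beta chains kept their order with LAMB2 above LAMB1 and LAMB1 above LAMB3 in all libraries but replicate 4, where LAMB1 was first. The summed laminin alpha level was 10.5 to 11.5 CPM per kilobase in the controls and 9.17 to 11.3 in the FTO siRNA libraries, which overlapped.

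**Figure D3:**
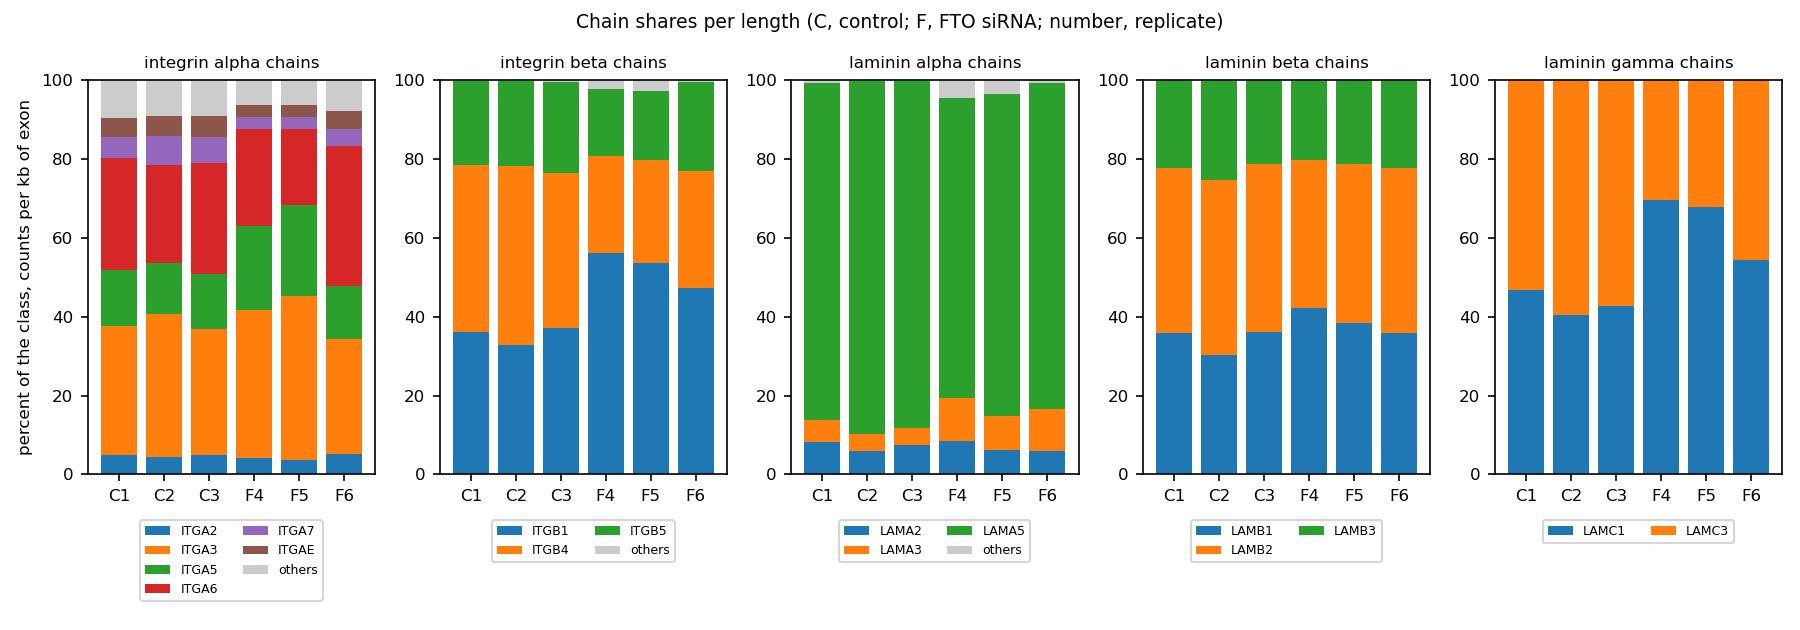
Share of each chain in its class in the 6 libraries, in percent of the summed counts per kilobase of exon, with chains below 5% in every library joined as others. C1 to C3 are the controls and F4 to F6 the FTO siRNA libraries; ITGB1 passes ITGB4, and LAMC1 passes LAMC3, in each FTO siRNA library.

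The FTO siRNA libraries were not alike. By the CPM as computed, with counts of 0 left at 0, 5 of the 33 chains with at least 3 counts in an FTO siRNA library had 4 times the level of replicate 6 or more in both replicates 4 and 5 (ITGA1, ITGA4, ITGB3, ITGB6 and LAMA4), beside 10.9% of the 21542 genes compared in the same way, and none had 4 times less, beside 0.622% of genes. All 5 had at most 4 counts in replicate 6, and ITGB6 had no more than 4 in any library. With libraries under 3 counts taken at the floor of 3, a choice made after seeing the data, ITGA1, ITGB3 and LAMA4 met this bound, 3 of 33 chains beside 3.69% of genes, and ITGA4 and ITGB6 did not. None had 4 times less, beside 0.00928% of genes. At a bound of 2 times, with counts of 0 again left at 0, ITGA5, ITGA10 and LAMA1 were added. This made 8 of the 33 chains, beside 3039 of the 21542 genes compared. Nothing in the labels separates replicates 4 and 5 from 6, the split was made with earlier results of these data known, and it was given no test. Replicate 6 was the lowest of the 3 FTO siRNA libraries for 7 of the 10 higher chains as well. It was above all controls for each of the 10 higher chains and below all controls for each of the 4 lower ones. These chains were called with replicate 6 included, so its side of the controls is not independent of the calls. The same counts over all called genes were not made.

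With replicate 6 as the only FTO siRNA library against the 3 controls, and the spread taken from the controls, 4 of the 25 tested chains were higher (ITGA2, ITGA6, ITGAV and LAMA3) and 1 was lower (ITGB4). Over all 15713 genes in that fit, 6.17% were higher and 5.89% were lower. The log2 fold changes of ITGA2 and ITGAV in that fit were 0.50 and 0.48, close to 0.53 and 0.59 with all libraries. Those of ITGA3, ITGA5, ITGB1 and LAMC1 were 0.14, 0.30, 0.37 and 0.29, below 0.81, 1.20, 0.70 and 0.74. The values of the former pair were thus alike with and without replicates 4 and 5, and those of the latter 4 chains were smaller without them.

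Markers of another cell type moved with this split. The 10 fibroblast markers summed to 15.5 to 16.7 CPM in the controls and to 918, 1094 and 21.3 CPM in replicates 4, 5 and 6, of which VIM, the mesenchymal filament protein, made 633.1 and 727.5 CPM in replicates 4 and 5 and 0.291 CPM in replicate 6. With at least 10 counts in both, 6 of the 10 markers had at least 4 times the CPM of replicate 6 in replicates 4 and 5, namely VIM, COL1A1, COL1A2, FAP, DCN and LUM. COL1A1 and COL1A2, which are also on the list of integrin ligands, were beside VIM the ones over 10 CPM there. FAP had no count in the controls, 64 and 81 counts (4.51 and 5.02 CPM) in replicates 4 and 5 and 4 counts in replicate 6. DCN had 14 and 15 counts and LUM 20 and 22 counts in replicates 4 and 5, and neither had a count in any other library. COL3A1, PDGFRA and THY1 had at most 2 counts in every library, and PDGFRB had 4.74 to 7.60 CPM in the controls and 6.91, 6.75 and 3.49 CPM in replicates 4, 5 and 6. In bulk RNA fewer or more cells of a type and less or more RNA per cell cannot be told apart. The part of these transcripts in the values of ITGA3, ITGA5, ITGB1, ITGB3, ITGA1, LAMA4 and LAMC1 in replicates 4 and 5 was not tested. It was not tested for the other chains either. In replicate 6, each of the 10 higher chains lay above all controls and each of the 4 lower chains below them. These chains were called with replicate 6 included, so nothing about the fibroblast transcripts is read from this. The epithelial markers summed to 8953 to 11450 CPM in the controls and 8093, 8354 and 10240 CPM in replicates 4, 5 and 6.

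**Figure D4:**
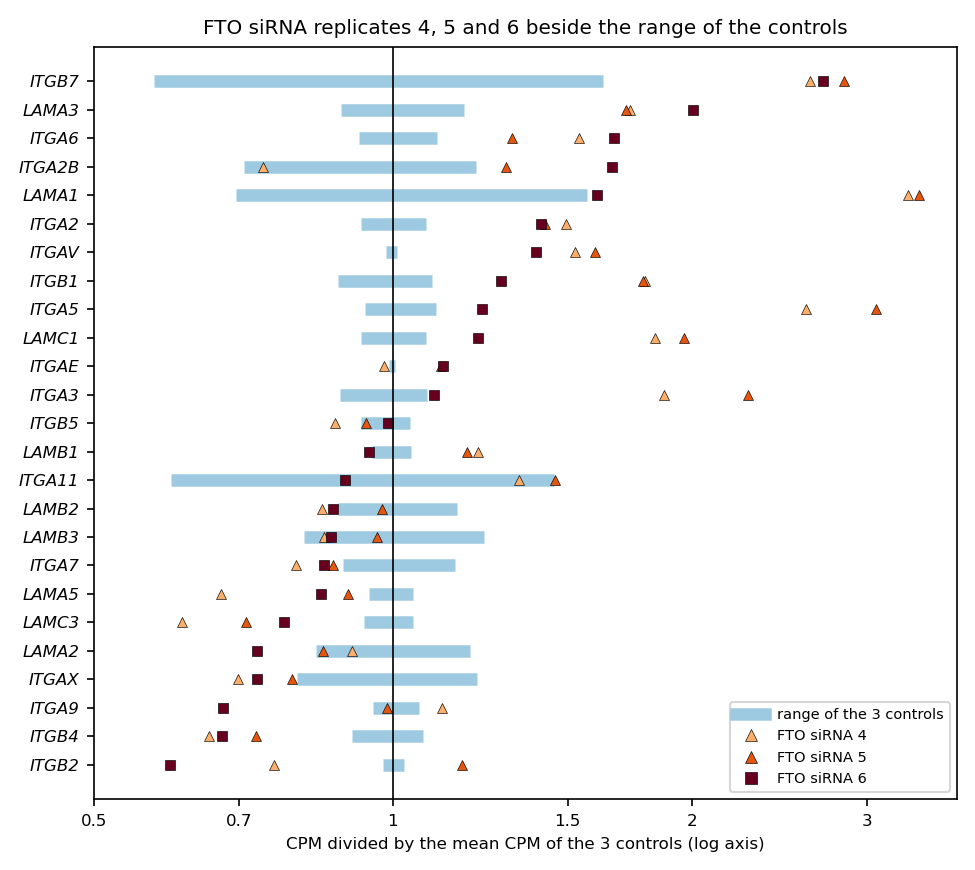
CPM of the 25 tested chains in FTO siRNA replicates 4, 5 (triangles) and 6 (squares), divided by the mean of the 3 controls, on a log axis; blue bars span the controls. Triangles and square lie together for ITGB4, ITGA2 and ITGAV, while for ITGA5, ITGA3, LAMC1 and LAMA1 the square lies near the range of the controls and the triangles at 1.84 to 3.39 times the control mean.

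The genes that work with these chains were taken from 4 lists, 68 genes in all, of which 54 were tested, 28 were higher and 4 were lower. Higher calls made 51.9% of them and lower calls 7.41%, beside 19.5% and 17.9% of all genes tested. The 4 lists were chosen with earlier results of these data known, so these shares are not an independent test. On library totals alone the counts were 34 and 0, where 26.7% and 12.2% of all genes were called. With replicate 6 as the only FTO siRNA library they were 9 and 0 of 55, beside 6.17% and 5.89% of all genes. The median log2 fold change of the 54 genes was 0.36.

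In the basement membrane list 5 of 9 tested genes were higher and 2 lower, to be read, as for each list that follows, beside the same 19.5% and 17.9%. HSPG2 (perlecan, the heparan sulfate proteoglycan that binds laminin) had 57.0, 36.6 and 60.8 CPM in the controls and 109.2, 127.6 and 125.7 CPM in the FTO siRNA libraries, with all 3 far above the controls (log2 fold change 1.23, SE 0.16, adjusted p = 0.00088). NTN4, a netrin that binds laminin gamma chains, had a log2 fold change of 1.39 (SE 0.30, adjusted p = 0.0060). NID2 (nidogen, which links laminin to collagen IV) had 0.278, 0.0667 and 0.154 CPM in the controls, 10.7 and 14.4 CPM in replicates 4 and 5 and 0.654 CPM in replicate 6, and 30.0% of its exon bases are shared with RTRAF. COL7A1, the anchoring fibril collagen, had 6.67, 9.88 and 7.31 CPM in the controls, 99.4 and 142.0 CPM in replicates 4 and 5 and 4.87 CPM in replicate 6, below the controls. The 2 lower genes were COL4A2, a collagen IV chain (log2 fold change -0.40, adjusted p = 0.0228 from edgeR), and AGRN (agrin), which fell from 564.9 to 597.7 CPM in the controls to 397.7 to 496.1 CPM in the FTO siRNA libraries (log2 fold change -0.33, adjusted p = 0.0242 from edgeR).

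Of the ligands of integrins other than laminin, 8 of 13 tested genes were higher and none was lower. FN1, the fibronectin bound by ITGA5, had 2.69, 1.33 and 2.21 CPM in the controls, 147.9 and 183.1 CPM in replicates 4 and 5 and 3.12 CPM in replicate 6. TNC (tenascin-C) had 7.74 to 9.45 CPM in the controls, 223.8 and 270.2 CPM in replicates 4 and 5 and 14.7 CPM in replicate 6, and FBN1 (fibrillin) had 0.867 to 1.34 CPM, then 37.6 and 45.9 CPM, and 3.34 CPM. COL1A1, a chain of fibrillar collagen, had 7.41 to 11.01 CPM in the controls, 150.6 and 196.6 CPM in replicates 4 and 5 and 17.0 CPM in replicate 6. In each of these 4 genes replicate 6 was above the controls and far below the other FTO siRNA libraries. VTN (vitronectin, bound by ITGAV) was chosen after its values were seen and did not show this split, with 45.3, 49.3 and 45.2 CPM in the controls and 84.0, 95.7 and 112.4 CPM in replicates 4, 5 and 6 (log2 fold change 1.06, SE 0.11, adjusted p = 0.000372).

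In the adhesion machinery inside the cell 12 of 25 tested genes were higher and 1 was lower. TLN1 (talin, the activator of integrin beta tails) had 184.9, 159.5 and 192.8 CPM in the controls and 300.5, 344.7 and 218.5 CPM in replicates 4, 5 and 6 (log2 fold change 0.69, SE 0.15, adjusted p = 0.0065). LIMS1 (PINCH, an adaptor of integrin-linked kinase) and PXN (paxillin) had log2 fold changes of 0.61 and 0.58, with no overlap of the groups. PARVB (beta-parvin) had 0.927 to 1.54 CPM in the controls, 19.4 and 27.1 CPM in replicates 4 and 5 and 0.581 CPM in replicate 6, below the controls. TNS2, a tensin, was the lower gene (log2 fold change -0.35, adjusted p = 0.0182 from edgeR). Among the hemidesmosome and tetraspanin genes 3 of 7 were higher and 1 was lower. DST (dystonin) rose from 24.9, 21.7 and 27.1 CPM to 73.9, 71.2 and 40.8 CPM (log2 fold change 1.34, SE 0.20, adjusted p = 0.0013), and PLEC (plectin, which ties ITGB4 to keratin) rose from 363.1 to 388.2 CPM to 446.9 to 551.0 CPM (log2 fold change 0.37, SE 0.096, adjusted p = 0.0137). These 2 genes were higher while ITGB4 was lower. COL17A1, also on this list, did not pass the test (log2 fold change 0.26, SE 0.10, adjusted p = 0.0744 from edgeR). Of the tetraspanins, which sit beside integrins in the membrane, CD82 had 19.1 to 26.6 CPM in the controls, 45.0 and 59.2 CPM in replicates 4 and 5 and 19.5 CPM in replicate 6, within the controls, and CD81 was lower (log2 fold change -0.30, adjusted p = 0.0479 from edgeR).

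The tested chains have more exon bases per gene, over all annotated transcripts together, than the genes tested as a whole (median 7577 against 4567). The median GC content, taken from the longest transcript of each gene, was 54.5% against 49.3%. With a correction for exon length and GC content in the fit, the median log2 fold change of the chains was 0.0070, and that of all genes -0.047. The same correction left 10 chains higher and 5 lower, LAMA2 being added to the lower ones (log2 fold change -0.53, adjusted p = 0.025, against 0.267 without it). Among all 14965 genes tested, 2079 were higher and 3021 lower with the correction, against 2913 and 2684 without. The correction lowered the log2 fold change of ITGA2 from 0.53 to 0.26, of ITGAV from 0.59 to 0.31, of ITGA6 from 0.59 to 0.39, of ITGB1 from 0.70 to 0.49 and of LAMA3 from 0.87 to 0.59, all still past the threshold. ITGB4 stayed at -0.52 and LAMC3 at -0.50.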

How the data were processed

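RNA-seq of 253J cells from 3 control siRNA and 3 FTO siRNA samples was used. The authors deposited 1 file of raw counts of reads per gene for each sample. Per the submitters' processing notes these were made with TopHat2 2.0.11 and HTSeq on hg19 and GRCh37, while no source used here gives the HTSeq version, annotation or strand setting. Ensembl IDs were matched to symbols (56321 of 60483), and to exon lengths and GC content in GENCODE 29 on GRCh38 without version numbers. Counts were filtered (filterByExpr, minimum count 10, minimum total 15), scaled by TMM and fitted with the quasi-likelihood model of edgeR 4.0.16 in R 4.3.3, with group as the only term. Tests were two-sided, with Benjamini-Hochberg adjustment over 14965 genes and a threshold of 0.05. The fit was tested on simulated data. The chains and the lists of partner and marker genes were chosen with earlier results of these data known. All chains are named, and of each partner list up to 4 genes per direction with the largest change past the threshold. Alternatives were other scalings, other filters, DESeq2 1.42.0, limma 3.58.1 (voom), leaving out libraries, a length and GC correction and a threshold of 0.01. Library pairs differed beyond sampling noise, so none was counted as a repeat.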

Additional observations from a re-analysis of the deposited data

How the results depend on the processing

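No paired analysis was possible because no replicate number from 1 to 6 occurs in both groups. The higher chains numbered 6 to 15 with 1 library left out, beside 1383 to 3826 among all genes. They were 15 of 30 tested without FTO siRNA replicate 6, beside 3826 of 16243 genes. Without control replicate 2 they were 6 of 29, beside 1540 of 15790 genes. The lower chains numbered 2 to 4 with 1 library left out, beside 1589 to 2928 among all genes. They numbered 2 on library totals alone, 2 with limma voom and 2 at an adjusted p under 0.01. ITGA2, ITGA6, ITGAV, LAMA3 and ITGB4 kept direction and call in all 15 alternative fits, and the other 9 of the 14 called chains lost the call in at least 1. With no filter 14 of 34 chains were higher, ITGA1, ITGA4, ITGA10, ITGB3 and LAMA4 among them, beside 3724 of 30886 genes.

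The higher partner genes numbered 11 to 34 with 1 library left out, 9 without replicates 4 and 5 and 15 at an adjusted p under 0.01. The lower partner genes numbered 0 to 4 with 1 library left out (0 without control replicate 1 and 0 without FTO siRNA replicate 4), 0 without replicates 4 and 5, 0 on library totals alone and 0 at an adjusted p under 0.01, all in edgeR, where 5 passed an unadjusted p of 0.05 with all libraries, 4 without replicates 4 and 5 and 3 on library totals, and DESeq2 called 4. At 2 times in place of 4, 8 of 33 chains were higher in replicates 4 and 5 than in 6, beside 3039 of 21542 genes. With libraries under 3 counts taken at the floor 3 were, beside 795 genes, an alternative added after seeing the data. Without replicates 4 and 5 the log2 fold change turned to -0.71 for COL7A1, -1.025 for PARVB and -0.19 for CD82, none past the threshold, and these 3 were higher with all libraries. Of the chains not past the threshold in either fit, ITGA11 turned to -0.11 and LAMB1 to -0.079 without replicates 4 and 5, LAMB1 to -0.045 with the length and GC correction, ITGA9 to 0.013 and ITGB5 to 0.015 on library totals, and, with 1 library left out, ITGA9 ranged from -0.25 to 0.060 and ITGA2B from 0.53 to -0.0026 (both turned without FTO siRNA replicate 6) and LAMB3 from -0.31 to 0.022 (without control replicate 2). Among values of single genes, 580 kept direction and side of the threshold, 120 lost the call, 2 gained it and 11 turned. The median log2 fold change of the chains was 0.27 on library totals, 0.43 with no filter, 0.42 with DESeq2, 0.10 with 10 counts required in every library and 0.0070 with the length and GC correction. Library totals moved the median of all genes by 0.11 on the log2 scale and that of the chains by 0.11. The cause was not tested. Depth limits the 5 chains under 10 counts in every library, for which a change may not be detectable.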
